A study of Homo sapiens with 12 samples.

Results

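The mitochondrially encoded genes are the genes carried by the small circular genome inside the mitochondrion. They were taken as every gene on chromosome MT whose name starts with MT-, which gave 37 of the 60617 genes in the files. Of the 37, 13 encode proteins, 2 encode rRNAs and 22 encode tRNAs. They were followed in 12 RNA-seq libraries of A549, a human lung adenocarcinoma cell line, in groups of 3. In the knockdown experiment, shBTLA cells carried a lentiviral short hairpin RNA against BTLA, an inhibitory receptor best known from lymphocytes, and shControl cells carried the empty vector, both after puromycin selection. It is not stated which of the study's hairpins was used for these libraries. In the sorting experiment, unmodified A549 cells were separated by flow cytometry with a fluorescent BTLA antibody into a BTLA low and a BTLA high population, which differed in surface BTLA at the sort by selection and not by an introduced agent. The paper reports that the sorted cells were also cultured, and that their BTLA difference persisted but had become smaller afterwards. It does not state plainly how long after the sort the RNA was taken. The sources do not say whether libraries of the same group were grown as separate cultures, and a p-value here therefore refers to library-to-library spread that could be technical only. Each gene was compared only between libraries of the same experiment.

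Human mitochondrial DNA is transcribed by a dedicated RNA polymerase from both strands into long precursors. The tRNAs lie between most of the other genes, and their excision releases the individual mRNAs and rRNAs, which is known as tRNA punctuation. The mRNAs encode core subunits of complexes I, III and IV of the respiratory chain and of the ATP synthase; all other subunits of these complexes, and every protein that copies, transcribes or degrades mitochondrial nucleic acid, are made from nuclear genes. One strand carries most of the genes, and MT-ND6 with a set of tRNAs is read from the other.

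In the files, which use GRCh38, 28 of the 37 genes lay on the plus strand and 9 on the minus strand, the latter being MT-ND6 and 8 tRNAs. The coordinates, strand and length of 37 of 37 matched the chrM gene records of GENCODE 44. Of the 22 tRNA genes, 4 had enough reads for a test, and their sequences are shown because these short genes, all on the minus strand, held nearly all of the tRNA reads described below. They are written 5′ to 3′ as transcribed, from the GENCODE 44 transcripts, with the anticodon in capitals. MT-TP, the proline tRNA, lies at chrMT:15956-16023, MT-TS1, a serine tRNA, at chrMT:7446-7514, MT-TE, the glutamate tRNA, at chrMT:14674-14742 and MT-TA, the alanine tRNA, at chrMT:5587-5655.
MT-TP: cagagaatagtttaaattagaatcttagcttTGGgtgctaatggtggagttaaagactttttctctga
MT-TS1: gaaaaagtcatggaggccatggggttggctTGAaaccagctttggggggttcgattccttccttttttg
MT-TE: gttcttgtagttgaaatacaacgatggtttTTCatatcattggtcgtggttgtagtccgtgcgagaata
MT-TA: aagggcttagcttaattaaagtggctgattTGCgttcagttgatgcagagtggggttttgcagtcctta

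A pair of mRNAs each carries 2 overlapping reading frames, and the overlap is shown because a read inside it belongs to both genes and the counting of such reads bears on the values of the shorter gene. MT-ATP8 and MT-ATP6 share 46 bases, 22.22% of MT-ATP8. MT-ND4L and MT-ND4 share 7 bases, 2.36% of MT-ND4L. The last 100 bases of MT-ATP8 (chrMT:8473-8572, plus strand) and the last 60 bases of MT-ND4L (chrMT:10707-10766, plus strand) follow, with the shared part in capitals.
MT-ATP8: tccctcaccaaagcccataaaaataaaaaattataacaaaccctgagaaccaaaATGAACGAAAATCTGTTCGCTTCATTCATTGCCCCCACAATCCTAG
MT-ND4L: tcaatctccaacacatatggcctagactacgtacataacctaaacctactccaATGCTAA

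The libraries held 29130357 to 42488067 reads assigned to genes, and levels are given as RPM, reads scaled to the total of assigned reads of the library. Keratin genes of the A549 epithelium were abundant in every library, with KRT18 at 1559 to 7192 RPM. EPCAM, another epithelial marker, was low at 2.58 to 7.56 RPM, with 6.65 to 7.56 for BTLA low and 2.58 to 3.11 for BTLA high. KRT8 did not overlap between the groups of either experiment, at 12158 to 13634 RPM for BTLA low against 8205 to 9831 for BTLA high and at 7836 to 9194 for shBTLA against 4262 to 6276 for shControl. Over all genes tested, 30.4% lay fully above in BTLA low and 9.14% in shBTLA. Of the 10 epithelial markers, limma called 7 higher and 1 lower in BTLA low and 0 in the knockdown. Over all genes, 19.1% were called higher and 6.25% lower in the sort, and 1.47% in either direction in the knockdown. Under median-of-ratios scaling, described below, 4 markers were higher and 1 lower in the sort, and 1 was higher in the knockdown. The 7 lymphocyte markers summed to 0.238 to 1.19 RPM, with 4 of 7 at 0 in all 12 libraries. The 4 myeloid markers summed to 3.01 to 5.51 RPM, with 3.01 to 4.12 for BTLA low and 5.12 to 5.30 for BTLA high, and 1 of the 2 that could be tested was called lower. The 6 fibroblast and endothelial markers summed to 1.32 to 3.61 RPM, with 1.32 to 1.97 for shBTLA and 2.20 to 3.61 for shControl. The part of these marker differences in the results that follow was not tested. BTLA itself had 0 reads in 10 libraries and 2 reads each in shControl 3 and BTLA high 3, where 3 reads correspond to 0.0706 to 0.103 RPM across libraries, so its mRNA does not check the group labels at this depth.

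Mitochondrially encoded genes took a larger share of the reads in BTLA low than in BTLA high cells. The share was 6.77%, 7.24% and 6.76% in BTLA low 1 to 3 against 5.29%, 5.25% and 5.79% in BTLA high 1 to 3. The groups did not overlap, with means of 6.92% ± 0.27 and 5.44% ± 0.30 (SD, n = 3), and the two-sided exact permutation p was 0.1, the smallest that 3 against 3 allows (adjusted p 0.2 over 10 such tests). In the knockdown the share was 5.47%, 4.91% and 6.25% in shBTLA 1 to 3 and 5.86%, 4.63% and 5.39% in shControl 1 to 3. These groups overlapped, with means of 5.54% ± 0.67 and 5.29% ± 0.62 (SD, n = 3; exact permutation p = 0.7), and the sign of the difference turned when shBTLA 3 or shControl 2 was left out (-0.10 and -0.08 percentage points). The Wilson 95% confidence interval of a share was widest in BTLA low 1, at 6.762% to 6.780%, and such intervals cover counting error only. In bulk libraries, fewer mitochondria or cells of a type and less RNA per cell cannot be told apart.

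**Figure D1:**
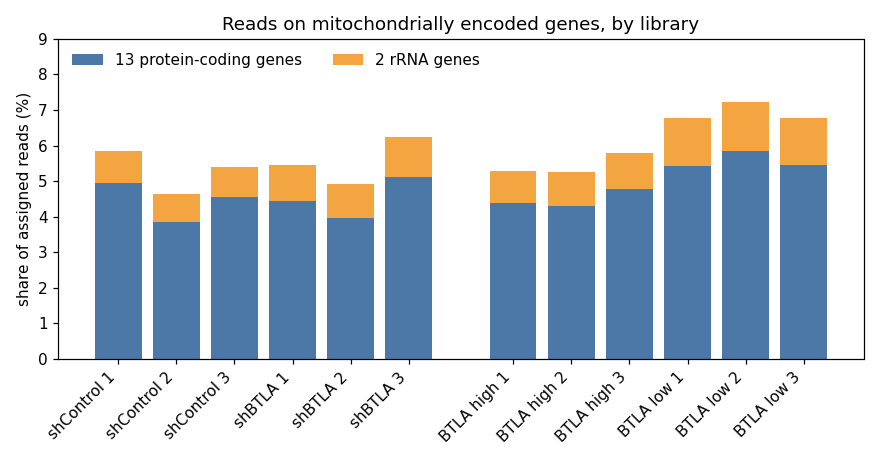
Share of all assigned reads (%) that fell on mitochondrially encoded genes in each of the 12 libraries, stacked as 13 protein-coding genes and 2 rRNA genes; the tRNA genes, at most 0.0737% of the mitochondrial reads, are too few to draw. The 3 BTLA low bars lie between 6.76% and 7.24%, above the 3 BTLA high bars, and the shBTLA and shControl bars overlap.

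Across genes, a test could be run on 19 of the 37 members in each experiment, which reached 10 reads in 3 or more of its 6 libraries; the other 18 were all tRNAs. The test was limma on log2(RPM + 0.1) over all genes past that filter, with Benjamini-Hochberg adjustment. In the knockdown, 0 of 19 members passed an adjusted p of 0.05, where 1.47% of the 16630 genes tested did, 0.782% as higher and 0.686% as lower; limma voom also called 0, and at an unadjusted p under 0.05 limma called 1 member, against 10.8% of all genes. In the sort, 8 of 19 were higher in BTLA low and 0 lower, where 25.4% of 16911 genes were called, 19.1% as higher and 6.25% as lower. At an unadjusted p under 0.05, 10 of 19 were called there against 38.8% of all genes, and the same 10 did not overlap between the groups, all higher in BTLA low, where 30.4% of all genes lay fully above and 11.4% fully below. The median log2 fold change over the 19 was 0.28 in the sort, against 0.18 over all genes tested, and 0.05 in the knockdown, against -0.02. Over the 15 mRNAs and rRNAs alone it was 0.29 in the sort and -0.02 in the knockdown. MT-TA, among the 4 tested tRNAs, met the filter in the knockdown only with its shBTLA libraries. The middle of all genes was shifted upward in BTLA low, and scaling by the median of ratios moved the median over all genes to 0.01. This scaling left MT-CO1 and MT-RNR2 as the 2 called members. It changed the split of all calls from 3238 higher and 1057 lower to 2035 higher and 2298 lower. In that scaling 2 of the 19 members (10.5%) and 2035 of the 16911 genes (12%) were called higher. The members' share was 42.1% against 19.1% of all genes by total reads, and close to the background when scaled this way. By total reads, the shares were also close with the replicate number as a block, at 10.5% against 10.2%. They were 10.5% against 9.8% without BTLA low 3 and 10.5% against 9.48% without BTLA high 1. With no filter on low reads they were 5.41% against 8.47%.

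**Figure D2:**
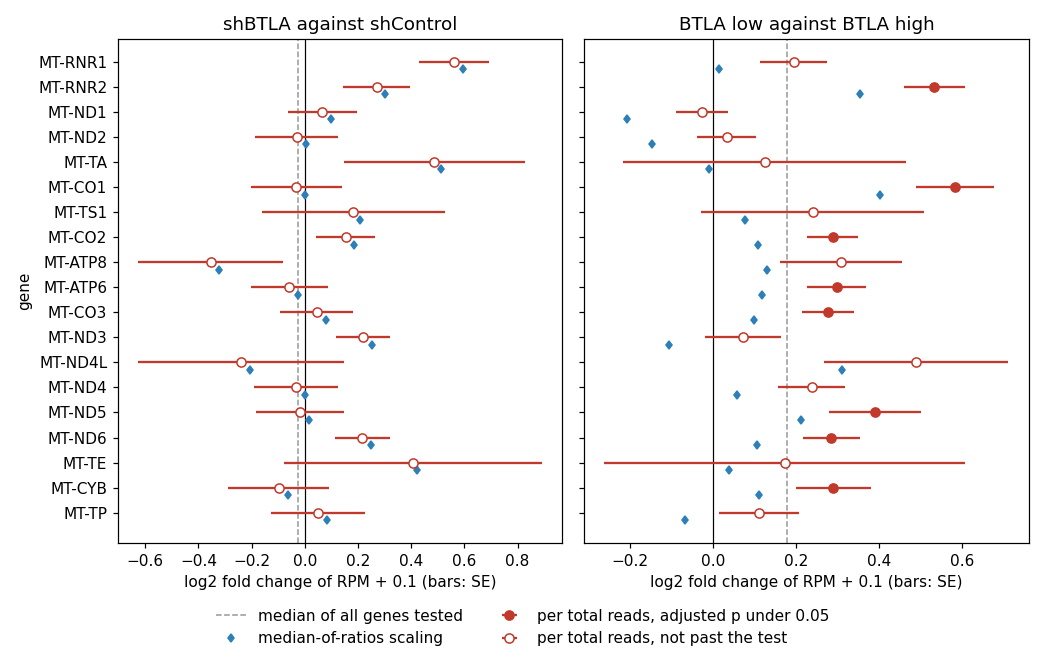
Log2 fold change of RPM + 0.1 (circles, bars are SE) for the 19 tested genes in genome order, filled where the adjusted p was under 0.05, with diamonds for the same difference under median-of-ratios scaling and a dashed line at the median of all genes tested. In the sort 8 circles are filled and the diamonds lie lower, with MT-CO1 and MT-RNR2 keeping the largest positive called values; in the knockdown no circle is filled.

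MT-RNR1 and MT-RNR2 encode the 12S and 16S rRNAs of the small and large subunits of the mitochondrial ribosome and lie next to each other at the start of the plus-strand transcript. MT-RNR2 had 11719, 12417 and 11498 RPM in BTLA low 1 to 3 and 7826, 7975 and 8833 RPM in BTLA high 1 to 3. All BTLA low libraries lay above all BTLA high libraries, a log2 fold change of 0.53 ± 0.07 (SE; limma adjusted p = 0.00103), which passed the test under each of the 14 alternatives with adjusted p from 0.000295 to 0.0432. MT-RNR1 had 1685, 1438 and 1484 RPM in BTLA low and 1315, 1429 and 1278 RPM in BTLA high. These values did not overlap but differed by only 0.19 ± 0.08 on the log2 scale (limma adjusted p = 0.111), and under median-of-ratios scaling the log2 fold change was 0.01.

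In the knockdown, MT-RNR1 was the member furthest apart. It had 1353, 1384 and 1569 RPM in shBTLA 1 to 3 and 814, 1086 and 1034 RPM in shControl 1 to 3. The groups did not overlap, and the log2 fold change was 0.56 ± 0.13 (SE), with a limma unadjusted p of 0.00262 and an adjusted p of 0.107. It passed without shControl 1 (log2 fold change 0.43, adjusted p = 0.0444) and without shControl 2 (0.64, adjusted p = 0.0327), over a range of 0.0134 to 0.506 across its alternatives, of which the lowest came with the replicate number as a block. MT-RNR2 had 8981, 8194 and 9761 RPM in shBTLA and 8307, 6618 and 7454 RPM in shControl, which overlapped (log2 fold change 0.27 ± 0.13, adjusted p = 0.503).

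Together the rRNAs made up a larger part of the mitochondrial reads in shBTLA than in shControl and in BTLA low than in BTLA high. The part was 18.9%, 19.5% and 18.1% in shBTLA 1 to 3 and 15.6%, 16.7% and 15.7% in shControl 1 to 3, and it was 19.8%, 19.1% and 19.2% in BTLA low 1 to 3 against 17.3%, 17.9% and 17.5% in BTLA high 1 to 3. Neither pair of groups overlapped, with differences of 2.85 and 1.83 percentage points (each exact permutation p = 0.1, the smallest possible, and adjusted p 0.2 over 10 tests). The reads on MT-RNR1 per read on MT-RNR2 went in opposite directions by mean, at 0.160 ± 0.009 for shBTLA against 0.134 ± 0.033 for shControl, and at 0.130 ± 0.014 for BTLA low against 0.164 ± 0.018 for BTLA high (SD, n = 3). On the log2 scale the sort difference was -0.34 with no overlap (exact permutation p = 0.1), and the knockdown difference was 0.29 with overlap (exact permutation p = 0.3), of which 0.08 was left without shControl 1; the difference between the experiments was not tested. Library shControl 1 had the lowest ratio of all 12, 0.098. It also had the lowest ribosomal protein share of its experiment, 6.89% of reads against 9.38% to 11.6% in the other 5. The part of this in the ratio was not tested. MALAT1, a nuclear-retained RNA, was also apart in the knockdown, at 261 to 310 RPM for shBTLA against 155 to 244 for shControl. NEAT1, also nuclear-retained, overlapped there, at 177 to 216 RPM for shBTLA and 168 to 194 for shControl. The part of either RNA in the rRNA differences was not tested. The paper does not state how RNA was selected before sequencing, and the part of that step in the rRNA reads was not tested either.

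Complex IV, cytochrome c oxidase, takes its 3 catalytic core subunits from MT-CO1, MT-CO2 and MT-CO3. MT-CO1 had 13936, 16519 and 14723 RPM in BTLA low 1 to 3 and 9556, 9350 and 11293 RPM in BTLA high 1 to 3. It was the member with the largest difference in the sort, 0.58 ± 0.09 on the log2 scale (SE; limma adjusted p = 0.00248), a level 49.8% above BTLA high, and it was called in all 14 alternatives (adjusted p 0.000325 to 0.0355). MT-CO2 and MT-CO3 were also higher by total reads, at 8055 ± 239 against 6597 ± 96 RPM and 8279 ± 105 against 6834 ± 232 RPM (SD, n = 3). Their log2 fold changes were 0.29 ± 0.06 (limma adjusted p = 0.00993) and 0.28 ± 0.06 (adjusted p = 0.0121), and with median-of-ratios scaling they were 0.11 and 0.10 and not called. In the knockdown the 3 genes had log2 fold changes of -0.03, 0.15 and 0.05 in the order above, and none passed the test; MT-CO1 ranged from 8221 to 10972 RPM in shBTLA and from 7974 to 11740 RPM in shControl.

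Complex I, the NADH dehydrogenase, has 7 mitochondrially encoded subunits, and in the sort they ran from overlapping ranges to a passed test. MT-ND1, the next protein-coding gene after the rRNAs on the plus strand, had 4422, 4560 and 4353 RPM in BTLA low and 4579, 4400 and 4616 RPM in BTLA high. These ranges overlapped and the log2 fold change was -0.03 ± 0.06 (limma adjusted p = 0.772). MT-ND2 was likewise close, at 2835 ± 106 against 2774 ± 174 RPM, with a log2 fold change of 0.03, which became -0.15 under median-of-ratios scaling. MT-ND5, a proton-pumping subunit and the longest member, had 2365, 2929 and 2338 RPM in BTLA low and 1844, 1763 and 2212 RPM in BTLA high. It was higher without overlap, by 0.39 ± 0.11 (limma adjusted p = 0.0313). MT-ND6, the only protein-coding gene of the minus strand, had 1387, 1284 and 1411 RPM against 1129, 1151 and 1069 RPM. It was also higher without overlap, by 0.28 ± 0.07 (limma adjusted p = 0.0161).

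MT-ND4, which shares an mRNA with MT-ND4L, had 5530, 6242 and 5658 RPM in BTLA low and 4859, 4583 and 5353 RPM in BTLA high. The groups did not overlap, but the difference of 0.24 ± 0.08 missed the threshold (limma adjusted p = 0.0585; 0.0482 by voom, within a range of 0.0171 to 0.706 over its alternatives). MT-ND4L varied widely within groups, with 215, 358 and 222 RPM in BTLA low and 168, 148 and 248 RPM in BTLA high (0.49 ± 0.22, adjusted p = 0.136). MT-ND3 did not pass, at 380 ± 10 against 363 ± 44 RPM (0.07, and -0.11 under median-of-ratios scaling). In the knockdown the 7 complex I genes had log2 fold changes from -0.24 (MT-ND4L) to 0.22 (MT-ND3 and MT-ND6), and none was called. MT-ND6 had 1228, 1191 and 1320 RPM in shBTLA and 980, 1097 and 1146 RPM in shControl, and MT-ND3 had 389, 418 and 407 RPM against 321, 379 and 345 RPM. Both were among the 5 members whose shBTLA values all lay above the shControl values, with MT-RNR1, MT-CO2 and MT-TA, while 0 lay fully below. Over all genes tested, 9.14% lay fully above and 8.77% fully below. MT-TA met the filter of 10 reads in 3 libraries only with its shBTLA libraries, the group where it was higher, so its place among the 5 carries no weight.

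MT-CYB, cytochrome b, is the only mitochondrially encoded subunit of complex III. It had 2407, 2754 and 2388 RPM in BTLA low and 2028, 1879 and 2275 RPM in BTLA high, which did not overlap (0.29 ± 0.09, limma adjusted p = 0.0429). In the knockdown it ranged from 1742 to 2523 RPM in shBTLA and from 1766 to 2755 RPM in shControl (-0.10 ± 0.19, adjusted p = 0.892). The ATP synthase subunits come from MT-ATP6, part of the proton channel, and MT-ATP8. MT-ATP6 had 4057, 4257 and 4123 RPM in BTLA low and 3216, 3266 and 3651 RPM in BTLA high. It was higher without overlap, by 0.30 ± 0.07 (limma adjusted p = 0.0156). MT-ATP8 had 89.6, 113 and 88.0 RPM against 76.1, 64.8 and 95.1 RPM, which overlapped (0.31 ± 0.15, adjusted p = 0.155). In the knockdown MT-ATP6 and MT-ATP8 had log2 fold changes of -0.06 and -0.35, neither called; shControl 1 alone had 142 RPM of MT-ATP8 where the other 5 libraries had 60.2 to 82.1.

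The 8 calls of the sort did not all rest equally on every library. MT-CO1 and MT-RNR2 were the 2 called without BTLA low 3 and also without BTLA high 1, whereas 11 members were called without BTLA high 3, adding MT-ND4, MT-ND4L and MT-ATP8. The calls over all genes moved the same way, with 9.8%, 9.48% and 27.6% higher in that order. The members' shares were 10.5%, 10.5% and 57.9%. MT-CYB was also lost without BTLA low 1, BTLA low 2 or BTLA high 2, MT-ND6 without BTLA low 1, and MT-ND5 without BTLA low 2 or BTLA high 2. BTLA low cells also had more of the nuclear-retained RNAs MALAT1 (415 ± 60 against 278 ± 16 RPM) and NEAT1 (481 ± 21 against 208 ± 27 RPM), and their ribosomal protein share was 6.41% to 8.20% against 7.99% to 10.5%; the part of these in the differences was not tested.

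**Figure D3:**
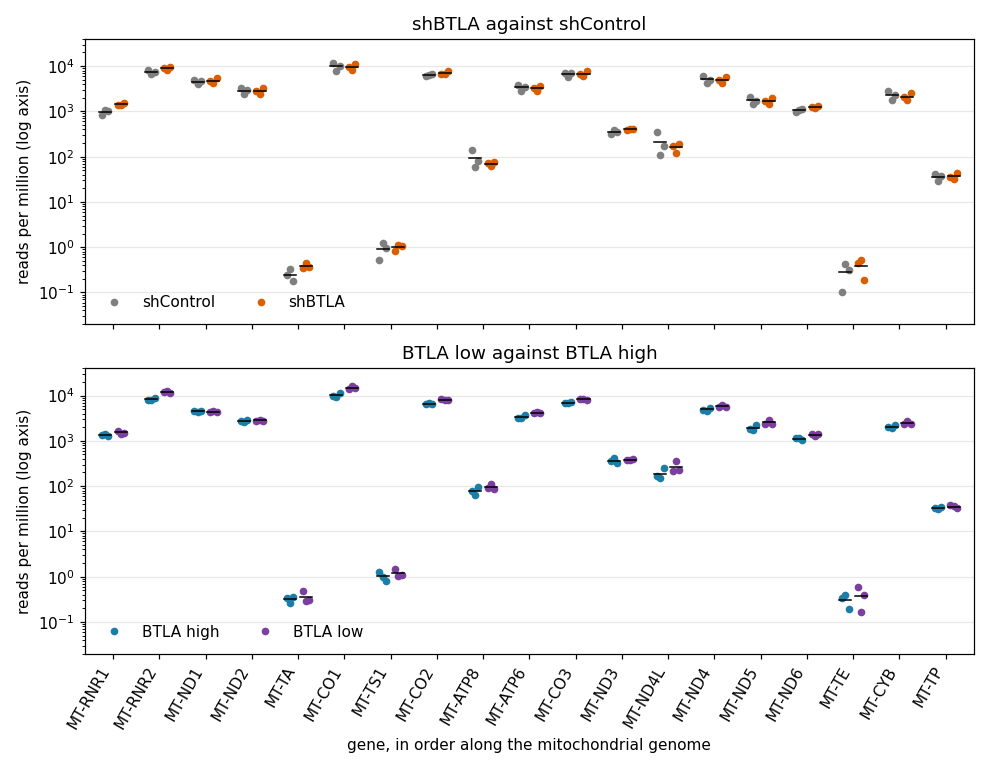
RPM (log axis) of the 19 tested genes in genome order in each experiment, where each point is a library and each black line a group mean. MT-CO1 and MT-RNR2 are the most abundant in BTLA low at 15059 and 11878 RPM, MT-ATP8 and MT-ND4L lie far below their overlapping partners, and the tRNAs other than MT-TP lie near or under 1 RPM.

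Per kilobase of its own length, the order of the 15 mRNAs and rRNAs was much the same in the 4 groups. MT-CO2, MT-CO3 and MT-CO1 stood highest in that order in every group, and MT-ND4L and MT-ATP8 lowest. In BTLA high, RPM per kilobase was 9644 ± 141 for MT-CO2, 8717 ± 296 for MT-CO3 and 6528 ± 692 for MT-CO1, with no overlap between these neighbours. MT-CO2 and MT-CO3 overlapped in shBTLA and in shControl, and MT-CO3 and MT-CO1 overlapped in BTLA low and in shControl. The next neighbours, MT-RNR2 at 5267 ± 349, MT-ATP6 at 4960 ± 350 and MT-ND1 at 4740 ± 121, overlapped in turn in BTLA high. In BTLA low these last 3 were separate, at 7619 ± 308, 6087 ± 150 and 4650 ± 110. MT-RNR1 stood at 1405 ± 83 in BTLA high, at rank 11 of 15. MT-ATP8, at 380 ± 74, and MT-ATP6 differed per length within one shared mRNA: 27.4 to 50.4 reads fell on MT-ATP6 for each on MT-ATP8, and 16.8 to 39.4 on MT-ND4 for each on MT-ND4L. The sources used here do not give how reads inside the overlaps were counted, which bears on the level of the shorter gene of each pair.

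Within the mitochondrial reads, MT-ND1, MT-ND2, MT-ND4, MT-CO1 and MT-RNR2 had different shares in the sorted populations. MT-ND1 made up 6.53%, 6.30% and 6.44% of mitochondrial reads in BTLA low against 8.65%, 8.38% and 7.97% in BTLA high. MT-ND2 made up 4.07%, 4.08% and 4.13% against 5.19%, 4.98% and 5.11%. MT-ND4 made up 8.39% ± 0.23 against 9.05% ± 0.28, a lower share although its RPM lay higher in BTLA low. MT-CO1 made up 21.7% ± 1.1 against 18.5% ± 0.9 and MT-RNR2 17.2% ± 0.15 against 15.1% ± 0.26 (SD, n = 3). These genes were separate between the groups, MT-CO1 and MT-RNR2 upward and the others downward, and such shares sum to a whole, so a gain of one gene lowers the rest. The reads on MT-CO1 per read on MT-ND1, a ratio chosen after the values were seen and free of library scaling, were 3.15, 3.62 and 3.38 in BTLA low against 2.09, 2.13 and 2.45 in BTLA high. In the knockdown the ratio was 2.08, 1.96 and 2.02 in shBTLA and 2.40, 1.94 and 2.17 in shControl, which overlapped.

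The spread of these shares within the knockdown was set largely by shControl 1. It was the library farthest from the experiment's mean for 13 of the 15 mRNAs and rRNAs. MT-ATP8 and MT-ND4L took 0.73 and 0.93 more of its mitochondrial reads on the log2 scale than the mean, and MT-RNR1 deviated by -0.65. In the sort, BTLA low 2 was farthest for 8 of 15, with MT-ND4L 0.48 above the mean and MT-RNR1 at -0.23. These 2 libraries had the lowest ribosomal protein share of their experiments, 6.89% and 6.41%, and the part of this in their composition was not tested.

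**Figure D4:**
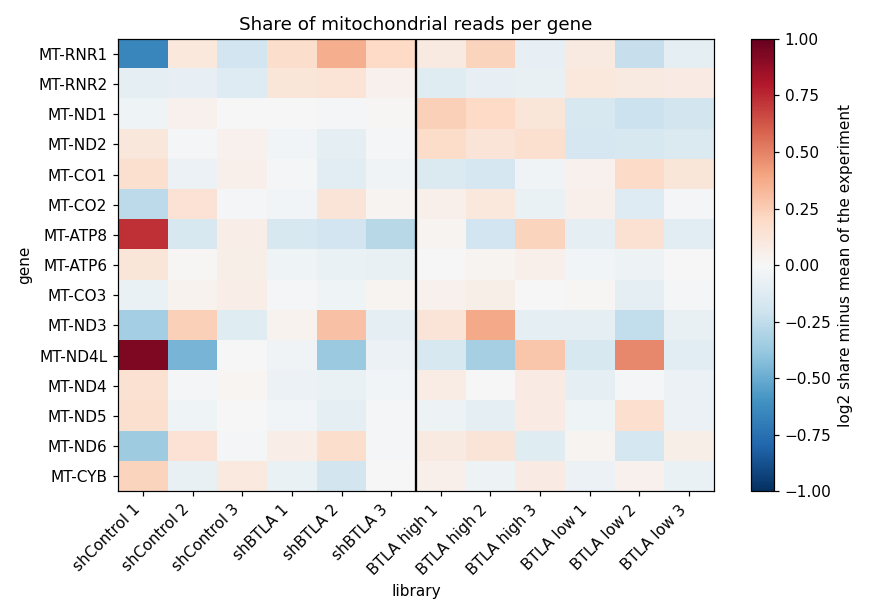
Log2 share of each of 15 mRNAs and rRNAs in the mitochondrial reads of a library, minus the mean over the 6 libraries of its experiment (red above, blue below; the black line parts the experiments). shControl 1 stands out with MT-ND4L at 0.93 and MT-RNR1 at -0.65, and MT-ND1 and MT-ND2 are blue in all 3 BTLA low libraries and red in all 3 BTLA high libraries.

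Reads on the minus-strand genes were 1.75% to 2.49% of the mitochondrial reads, and MT-ND6 held 95.9% to 97.6% of them. Their share was 2.33% ± 0.15 in shBTLA and 2.13% ± 0.35 in shControl (exact permutation p = 0.5), and 2.02% ± 0.17 in BTLA low and 2.12% ± 0.19 in BTLA high (exact permutation p = 0.5; SD, n = 3). In both experiments the ranges of the groups overlapped. The sources used here do not give whether counting used strand, so these are reads at the positions of minus-strand genes.

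The tRNA genes had 982 to 1921 reads per library in all. MT-TP alone held 89.7% to 95.4% of these reads. It had 1340, 1116 and 1816 reads in shBTLA, 1192, 881 and 1442 in shControl, 1099, 1476 and 1068 in BTLA low against 1181, 1301 and 1074 in BTLA high. Neither comparison of MT-TP passed the test, with 36.7 ± 6.2 against 35.5 ± 6.3 RPM in the knockdown (0.05) and 35.3 ± 2.3 against 32.7 ± 1.8 RPM in the sort (0.11, and -0.07 under median-of-ratios scaling). MT-TS1, whose 3′ end lies directly beside the end of MT-CO1, on the opposite strand, followed with 15 to 45 reads, MT-TE with 3 to 19 and MT-TA with 7 to 16. None of these was called in either experiment. MT-TA had 13, 16 and 15 reads in shBTLA and 7, 10 and 7 in shControl (limma adjusted p = 0.692).

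The other 18 tRNA genes had at most 13 reads in any library. MT-TV and MT-TW, the valine and tryptophan tRNAs, each had 1 read in 1 of the 12 libraries. MT-TH, the histidine tRNA, had 0 reads in every BTLA low library and 2, 4 and 3 in the BTLA high libraries, which is at or near the floor that a count of 0 allows (3 reads per library). The tRNA share of mitochondrial reads was 0.0603%, 0.0527% and 0.0530% in BTLA low against 0.0691%, 0.0638% and 0.0631% in BTLA high, with no overlap (exact permutation p = 0.1, adjusted p 0.2 over 10 tests), while in the knockdown it was 0.0712% ± 0.0022 against 0.0719% ± 0.0027 (exact permutation p = 0.9). Beside the lower share, the RPM of MT-TP overlapped between the groups, and the mitochondrial share of all assigned reads was larger in BTLA low (mean 6.92% against 5.44%).

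**Figure D5:**
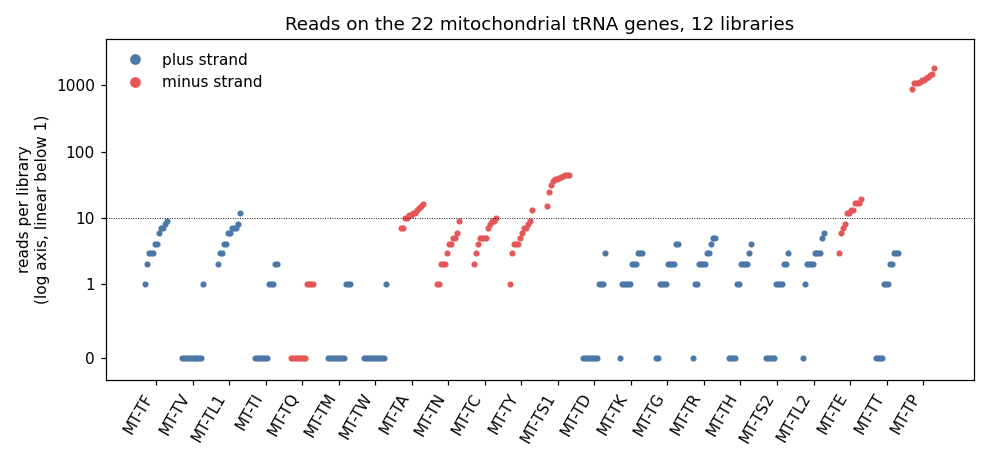
Reads per library (log axis, linear below 1) on each of the 22 mitochondrial tRNA genes in genome order, where each gene's 12 libraries are sorted from low to high, the colour gives the strand and the dotted line marks 10 reads. MT-TP lies at 881 to 1816 reads, MT-TS1 at 15 to 45, and 18 genes at 13 or fewer.

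The nuclear genome holds copies of mitochondrial sequence, and 407 such genes were in the files, of which 95 had a read. They took 0.00846% to 0.0152% of all reads. Most of these, 76.0%, fell on MTATP6P1, a copy of MT-ATP6 on chromosome 1, and 85.6% on the top 3 copies. MTATP6P1 had 1892 to 4742 reads per library where MT-ATP6 itself had 87613 to 176571. The handling of reads that fit both a copy and its original is not stated.

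The nuclear genes that maintain and express the mitochondrial genome were read from a list of 70. In the knockdown 0 of 67 tested passed (limma and voom), where 1.47% of all genes did by limma. At an unadjusted p under 0.05 MRM1 was higher and ELAC2 lower, where 10.8% of all genes were called in either direction. In the sort 4 of 69 were higher and 9 lower in BTLA low, where 19.1% of all genes were called higher and 6.25% lower, and their median log2 fold change was -0.05 against 0.18 over all genes. Under median-of-ratios scaling the median was -0.23 and 3 were higher and 26 lower, where 2035 of all 16911 genes were higher and 2298 lower. Leaving out BTLA low 3 or BTLA high 1 left 4 calls each, leaving out BTLA low 2 left 8 and leaving out BTLA high 2 left 7. Over all genes, the same settings called 1618, 1578, 2240 and 2242 higher and 510, 418, 821 and 734 lower, in that order. The 4 higher were PPARGC1A, a coactivator of mitochondrial biogenesis (1.04 ± 0.08 against 0.146 ± 0.022 RPM, 2.22 ± 0.30 on the log2 scale, adjusted p = 0.000967), RRM2B and TK2, which supply nucleotides for mitochondrial DNA (0.47 and 0.38), and ANGEL2 (0.51). PPARGC1A was read at only 4 to 44 reads per library. PPARGC1A met the read minimum of the filter only with its BTLA low libraries, the group where it was higher. Its call and the size of its fold change therefore carry no weight. Those lower included PUS1, a pseudouridine synthase that acts on mitochondrial tRNAs (77.9 ± 8.5 against 141 ± 17 RPM, -0.85 ± 0.12, adjusted p = 0.00100), MRPL12, a ribosomal protein that also binds the mitochondrial RNA polymerase (-0.71), and PPRC1, a coactivator related to PPARGC1A (-0.61). ELAC2, which cuts the 3′ ends of tRNAs out of the precursor (-0.35), TBRG4 (-0.32), SLIRP, a stabiliser of mitochondrial mRNAs (-0.44), and PNPT1, a mitochondrial ribonuclease (-0.31), were lower too, as were MRM3, a methyltransferase of 16S rRNA (-0.53), and DDX28 (-0.40). The polymerase itself, POLRMT, had 128 ± 8 against 148 ± 7 RPM and was not called (limma adjusted p = 0.0864), nor was TFAM, which packages the genome and starts transcription, at 32.6 ± 6.5 against 31.8 ± 4.5 RPM.

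The nuclear-encoded subunits of the same 4 complexes were read from a list of 75, all tested. In the knockdown 0 passed by limma or voom, where 1.47% of all genes did by limma. At an unadjusted p under 0.05, 3 of the 75 were higher and 0 lower, where 10.8% of all genes were called in either direction. These were COX7B (0.43), NDUFA4 (0.35) and NDUFS4 (0.38). The median log2 fold change over the list was 0.21 against -0.02 over all genes. In the sort 1 was higher and 3 lower in BTLA low, against the same 19.1% and 6.25% of all genes, with a median of -0.12 against 0.18. Median-of-ratios scaling gave 1 higher and 14 lower, beside 2035 and 2298 of all 16911 genes. Leaving out BTLA high 3 gave 1 higher and 17 lower, beside 4603 and 1382 of 16694 genes. Leaving out any other library gave 2 calls, beside 1578 to 2323 genes higher and 418 to 821 lower over all genes. CYC1, cytochrome c1 of complex III, had 348 ± 18 against 469 ± 34 RPM (-0.43 ± 0.08, limma adjusted p = 0.00495). ATP5MC1, a subunit of the ATP synthase ring (-0.45), and UQCR11 of complex III (-0.40) were the other lower genes. The higher one, NDUFV2 of complex I, was read at 16 to 58 reads per library (1.15 ± 0.27, adjusted p = 0.0138).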

How the data were processed

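RNA of A549 cells was sequenced in 12 libraries with standard Illumina protocols. Per the labels and the study's methods, the authors used Trim Galore 0.6.6 for trimming, STAR for alignment to GRCh38 and featureCounts for gene counts. They deposited RPKM values, which divide reads by gene length and library total, in 1 table for each experiment. How strand and multi-mapped reads were treated is not stated, and the paper does not state how RNA was selected before sequencing. The deposited RPKM carried the length of another gene, the one at the same place in the sorted list of gene IDs, so whole reads were recovered by undoing that length. For genes of known length, 100.0% of 279884 values above 0 were whole within 0.02 read. The length of 1056 further genes without a name in the files was found by search, which was right for 196 of 200 genes of known length; all 37 members had a known length. Reads were then divided by the library total to give RPM.

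Each experiment was fitted alone with limma 3.58.1 in R 4.3.3 (trend, log2(RPM + 0.1), at least 10 reads in at least 3 libraries, Benjamini-Hochberg over all genes tested), and limma voom on the recovered reads was an alternative. The fit was tested on simulated data. Measures per library (5 per comparison) were compared by two-sided exact permutation tests (scipy 1.17.1), with 10 tests in the family. The authors' own columns of fold changes and p-values were not used. Named genes were all members, and of each nuclear list those past the threshold or, with none, those at an unadjusted p under 0.05. The members and lists were chosen with earlier results of these data known. Sequences came from GENCODE 44 transcripts mapped to GRCh37, whose chrM coordinates equal those of the files for 37 of 37 members.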

Additional observations from a re-analysis of the deposited data

How the results depend on the processing

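The alternatives were library scale, pseudocount, read minimum, limma voom, RPKM as deposited, the replicate number as a block and each library left out. The deviations of same-numbered samples had r of 0.22, 0.41 and -0.04 in the knockdown and 0.07, -0.37 and -0.16 in the sort. As not every r passed 0.1 in either, the numbers were not taken to pair them. The replicate block called 1 member in the knockdown (MT-RNR1, adjusted p 0.0134) and 2 in the sort, 545 and 2187 genes over all, 1 and 2 respiratory subunits and 3 machinery genes in the sort.

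Median-of-ratios scaling gave 2 members, 29 machinery genes and 15 respiratory subunits in the sort; with no filter on low reads there were 3 members, MT-CO1, MT-RNR2 and MT-TH, the last lower. The deposited RPKM called 115 and 2528 genes, and 4 machinery genes and 1 respiratory subunit in the sort, where fewer genes were tested. Leaving out 1 library called 0 to 1 members for the knockdown, and for the sort 2 to 11, with 25 to 484 and 1996 to 5985 genes, 4 to 16 machinery genes and 2 to 18 respiratory subunits. The causes were not tested.

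Uncalled log2 fold changes turned sign under median-of-ratios scaling for MT-ND2 (0.0026), MT-CO1 (0.0013) and MT-ND5 (0.015) in the knockdown and for MT-ND2 (-0.15), MT-TA (-0.011), MT-ND3 (-0.11) and MT-TP (-0.069) in the sort. With a library left out they spanned 0 in the knockdown for MT-ND1 (-0.032 to 0.16), MT-ND2 (-0.15 to 0.078), MT-CO1 (-0.18 to 0.10), MT-TS1 (-0.14 to 0.42), MT-ATP6 (-0.18 to 0.049), MT-CO3 (-0.063 to 0.14), MT-ND4L (-0.64 to 0.22), MT-ND4 (-0.16 to 0.093), MT-ND5 (-0.15 to 0.12), MT-CYB (-0.27 to 0.051) and MT-TP (-0.10 to 0.16), and in the sort for MT-ND2 (-0.0090 to 0.080), MT-TA (-0.053 to 0.23) and MT-TE (-0.12 to 0.54). So did the knockdown differences in mitochondrial share (-0.103 to 0.565 percentage points) and tRNA share (-0.00229 to 0.000178) and the sort difference in minus-strand share (-0.204 to 0.00157). MT-CO1 and MT-RNR2 in the sort kept direction and call under all 14 alternatives. With 3 libraries per group, an exact test cannot go below 0.1. In both experiments 18 tRNA genes had too few reads for the main test, and the reason for their low counts was not tested.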
